A study of Mus musculus with 15 samples.

Results

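The 83 chaperone genes measured here are the heat shock proteins, the DnaJ proteins and the subunits of the cytosolic chaperonin. They were taken by symbol from 19933 genes on 15 Affymetrix mouse arrays. A gene was included where a probe set naming it alone carried a symbol of the Hsp families, of Dnaja, Dnajb or Dnajc, of Cct, or Tcp1. Where a gene had several such probe sets, the one with the highest mean over all arrays was kept, as it was for 8 of the 83. The set held 10 genes of the Hsp70 family, 3 of the Hsp110 group, 2 of the Hsp90 family, 2 for mitochondrial Hsp60 and Hsp10, 10 CCT genes, 8 small heat shock proteins and 45 DnaJ genes (4 of class A, 13 of class B and 28 of class C). It also held 2 binding partners, Hspbp1 and Hspbap1, and perlecan (Hspg2), a matrix proteoglycan that is no chaperone and fits the letters of the rule alone. The inducible Hspa1b and the cytosolic Hsp90ab1 were not analysed here.

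The arrays came from G1E cells, a mouse erythroid precursor line without functional GATA1, the transcription factor that drives red cell maturation. Each of 5 lines carried GATA1 joined to an estrogen receptor domain (GATA1-ER), either wild type or with the residue change R216Q, R216W, D218G or D218Y in its amino-terminal zinc finger. All 15 cultures had been given 100 nM estradiol for 24 hours, which activates the fusion, so wild type GATA1-ER with estradiol is the reference throughout and no untreated cells were analysed here. There were 3 biological replicates of each line. The number of clones or pools per construct is not stated in the labels. A line and its mutation therefore cannot be told apart. Each p-value sets a difference between line means only against the spread of cultures within lines, pooled over the 5 lines.

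Chaperones bind unfolded proteins and help them fold, assemble, cross membranes or reach the proteasome. Hsp70 proteins hold and release short stretches of a client in cycles of ATP hydrolysis. DnaJ proteins bring clients to Hsp70 and start that hydrolysis, and Hsp110 proteins exchange the nucleotide. Hsp90 acts later in folding, on kinases and receptors among others. The chaperonins are closed chambers, Hsp60 with its lid Hsp10 in mitochondria and CCT (the products of Tcp1 and the Cct genes) in the cytosol, where actin and tubulin are folded. A maturing red cell makes globin in bulk, and Hsp70 is known there to protect GATA1 itself from caspase cleavage.

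Values were log2 expression values, so 1 unit is a 2-fold change, and they compare arrays for a gene, not genes with each other. Array medians ran from 6.24 to 6.41. The third D218G array stood apart from the others of its line, with a median of 6.24 against 6.37 and 6.40, and the D218Y medians were also low, at 6.24 to 6.29. Within a line, the chaperone genes had a median standard deviation of 0.05 for wild type and R216W, 0.04 for R216Q and D218Y, and 0.06 for D218G. Gata1, whose probe set does not tell the introduced from the endogenous transcript and cannot show the residue changes, read 12.35 to 12.36 in wild type and 12.05 to 12.08 in D218Y. Of the erythroid marker list, 9 of 10 genes were measured, and all 9 lay above the median gene level in every line. Marker lists of granulocytes and monocytes and of lymphocytes had no member above that median in any line, whereas of 10 stromal markers 5 lay above it in wild type, 4 in D218G and 3 in each other line.

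A difference was called where limma, fitted on all 19933 genes, gave a Benjamini-Hochberg adjusted p under 0.05, and rose and fell are used for called differences alone. Errors are limma standard errors (SE), each over 3 arrays a line. An F test for any difference among the 5 lines called 56 of the 83 chaperone genes (67.5%), against 41.9% of all genes. Most of the differences were small, and just 5 of the 498 differences reached 2-fold, 4 of them in Dnajb2 and 1 in Dnajc27. The heat map of differences by family shows that D218Y carried the broadest pattern, with many mitochondrial, endoplasmic reticulum and CCT genes higher. Of 8 genes assigned to mitochondria, 5 were higher in D218Y (62.5%, beside 20.3% of all genes) and 1 lower (12.5%, beside 24.2%). Of the 5 rises, 4 were kept with each array left out. In D218Y 8 of 13 DnaJ class B genes were lower (61.5%, beside 24.2% of all genes), a count that scaling lowers.

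Against wild type, 25 chaperone genes were higher in R216Q (30.1%, beside 11.8% of all genes) and 7 lower (8.43%, beside 9.65%), together 38.6% beside 21.5%. In R216W 12 were higher (14.5%, beside 9.36%) and 9 lower (10.8%, beside 7.23%), together 25.3% beside 16.6%. In D218G 15 were higher (18.1%, beside 10.3%) and 6 lower (7.23%, beside 7.77%), together 25.3% beside 18.1%. In D218Y 34 were higher (41%, beside 20.3%) and 21 lower (25.3%, beside 24.2%), together 66.3% beside 44.4%. The share higher exceeded that of all genes in all 4 lines, and the share lower was near that of all genes in R216Q, D218G and D218Y. Chaperone genes are mostly well expressed, with 64 of the 83 above the median gene mean of 6.48, and differences are called more often among brighter genes. Among genes above that median the shares were closer, with 50% of chaperone genes and 40.8% of all genes called in R216Q, 32.8% and 31.4% in R216W, 32.8% and 34.2% in D218G, and 73.4% and 68.2% in D218Y. Higher alone were 39.1% and 22.8% in R216Q, 18.8% and 17.8% in R216W, 23.4% and 19.9% in D218G, and 53.1% and 37.6% in D218Y. The excess higher was thus small in R216W and D218G at this level. Lower alone were 10.9% and 18%, 14.1% and 13.6%, 9.38% and 14.3%, and 20.3% and 30.7% in the same order. The median log2 difference of the 83 genes was 0.01 in R216Q, 0.00 in R216W, 0.02 in D218G and -0.01 in D218Y, beside -0.01, -0.02, -0.02 and -0.07 for all genes. These 4 comparisons share the 3 wild type arrays. The D218G count was the least steady, with 11 genes called without wild type replicate 1, 12 without D218G replicate 1 and 14 without D218G replicate 3.

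**Figure D1:**
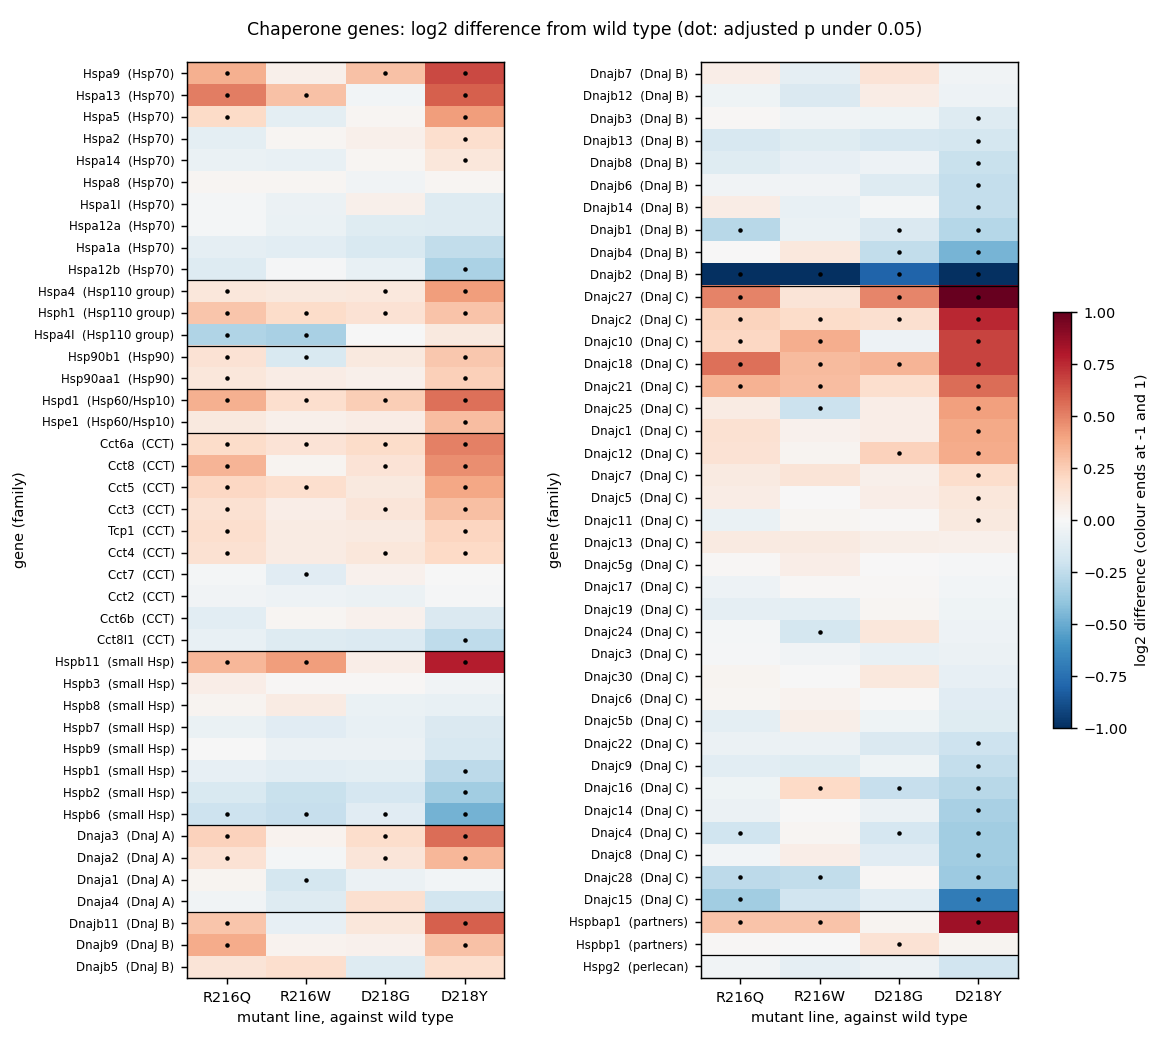
Heat map of the log2 difference from wild type for all 83 chaperone genes (rows, grouped by family and sorted within it by the D218Y value) in the 4 mutant lines (columns), with red for higher, blue for lower and a dot for an adjusted p under 0.05. Dots are densest in the D218Y column, where 55 genes were called, and the darkest blue row is Dnajb2.

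In the cytosol, the constitutive Hsp70 was not called in any comparison, while several of its helpers were. Hspa8, the abundant Hsp70 of resting cells, read between 12.70 and 12.84 in all 15 arrays. Its D218Y difference was 0.02 ± 0.03 (SE), and its other 2 probe sets gave 0.02 and 0.07, also not called. Hspa1a, the classic stress-inducible Hsp70, read between 6.68 and 7.27, with the 5 lines overlapping, and was not called in any comparison either. Hspa4, an Hsp110 protein that recharges Hsp70, read 11.22, 11.26 and 11.30 in wild type and 11.66, 11.68 and 11.70 in D218Y. All D218Y arrays lay above all wild type arrays, and Hspa4 rose by 0.42 ± 0.03 (adjusted p = 5.56e-08). In R216Q and D218G its differences of 0.11 each were called with all arrays, but no longer without wild type replicate 1 (adjusted p = 0.105 and 0.161).

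Hsph1, the inducible Hsp110, rose in R216Q by 0.28 ± 0.04, in R216W by 0.18 and in D218Y by 0.28, and its D218G difference of 0.15 lost its call without wild type replicate 1 (adjusted p = 0.112). Hspa4l, the third of this group, went the other way in the R216 lines. It read 8.85, 8.96 and 8.95 in wild type, 8.61, 8.63 and 8.61 in R216Q, 8.57, 8.62 and 8.58 in R216W, 8.86, 8.83 and 9.06 in D218G, and 9.07, 9.02 and 8.96 in D218Y. The R216Q and R216W arrays were all below the wild type arrays, whereas the D218G arrays overlapped them and the D218Y arrays were all above them. Hspa4l fell by 0.30 ± 0.05 in R216Q (adjusted p = 0.000794) and by 0.33 in R216W (adjusted p = 0.000531), and its differences of -0.01 in D218G and 0.10 in D218Y were not called.

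Hsp90aa1, the inducible cytosolic Hsp90, read 12.34 to 12.39 in wild type and 12.59 to 12.61 in D218Y, without overlap, and rose there by 0.24 ± 0.03 (adjusted p = 1.79e-05). Its other 2 probe sets gave 0.21 and 0.26. The R216Q difference of 0.11 (adjusted p = 0.0205) lost its call without R216Q replicate 2 (adjusted p = 0.0929), and those of R216W and D218G were 0.07 and 0.05, not called. Hspa14, an Hsp70 that works at the ribosome, differed by 0.11 in D218Y (adjusted p = 0.0367, and 0.136 without D218Y replicate 1). Hspa2, best known from male germ cells, was higher by 0.17 ± 0.04 in D218Y (adjusted p = 0.00178), but this turned to -0.02 under quantile normalization, so its direction depends on the scaling.

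Heat shock factor binds repeats of GAA and its complement TTC in the promoters of many of these genes, and the sequences below show such matches for genes whose measured behaviour differed. RefSeq promoter windows of 300 bases, 250 before and 50 after a start site on GRCm38.p6, were found for 69 of the 83 genes (88 windows). The heat shock element core, GAANNTTC or TTCNNGAA on either strand, was in 23.9% of these windows and in 15.1% of all 32851 windows of the table. Its 3-unit form, in which GAANNTTC runs on into NNGAA or TTCNNGAA into NNTTC, contains the core and was in 6.82% (6 windows, of Dnajb6, Hspd1, Hspe1 and Hsph1) beside 0.603% of all windows. Capitals mark core matches in these stretches, which end at the base before a start site, for Hsph1 (chr5:149636337-149636416, minus strand, 1 of 2 windows), Hspa1a (chr17:34972157-34972306, minus strand) and Hspb1 (chr5:135887769-135887918, plus strand).
Hsph1: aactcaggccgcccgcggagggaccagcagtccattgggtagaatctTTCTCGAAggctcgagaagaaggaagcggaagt
Hspa1a: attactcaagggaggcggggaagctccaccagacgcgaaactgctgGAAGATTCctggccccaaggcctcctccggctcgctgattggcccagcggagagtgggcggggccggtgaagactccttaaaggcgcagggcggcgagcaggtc
Hspb1: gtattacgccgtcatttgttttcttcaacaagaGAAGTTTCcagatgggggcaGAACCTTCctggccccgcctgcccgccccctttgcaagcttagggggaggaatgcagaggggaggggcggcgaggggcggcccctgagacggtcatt
All of these hold a core match, but the windows are not alike. The Hsph1 start site used here lies within the annotated gene. Its window holds 3 cores in all, with a 3-unit match past the printed stretch, whereas the Hspa1a window holds 1 core. Hsph1 rose in R216Q, R216W and D218Y, and Hspa1a was called nowhere. Hspb1, the small heat shock protein Hsp27, lay below the median gene level and was lower in D218Y by 0.26 ± 0.06 (adjusted p = 0.00255), a call that cyclic loess normalization ended. A match of letters is a description and not a measured binding site.

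In the endoplasmic reticulum, 7 of 8 chaperone genes assigned to its lumen rose in D218Y, while limma called 0 in D218G (2 at an unadjusted p under 0.05). The 8 genes were grouped by this compartment after their values had been seen, so the counts are descriptive. Dnajc1, which is among them and rose in D218Y, is itself a membrane protein. Other J proteins of the reticulum membrane were not among the 8, and they went both ways in D218Y. Dnajb14 and Dnajc14 fell by 0.24 and 0.32, Dnajb12 differed by -0.05, not called, and, with values given below, Dnajc16 fell and Dnajc18 rose. The Dnajb14 call ended under median centring. Of the 8 genes, 6 were called higher in R216Q, and 2 higher and 1 lower in R216W. The medians of the 8 log2 differences were 0.20, 0.00, 0.03 and 0.40 in R216Q, R216W, D218G and D218Y. Of the 6 R216Q calls, that of Dnajc10 (0.21) ended without wild type replicate 1 (adjusted p = 0.122). The R216W difference of Hspa13 (0.29) likewise ended without that array (adjusted p = 0.0845). Under median centring of the arrays 4 of the 6 R216Q calls and all 7 D218Y calls were kept. Of all genes, 11.8% were higher in R216Q, 9.36% in R216W, 10.3% in D218G and 20.3% in D218Y. Above the median gene level, where all 8 genes lie, these shares were 22.8%, 17.8%, 19.9% and 37.6%.

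Hspa5 (BiP) is the Hsp70 of the reticulum and holds the stress sensors there inactive. It read 10.74, 10.77 and 10.83 in wild type, 11.00, 10.91 and 11.00 in R216Q, 10.65, 10.76 and 10.65 in R216W, 10.78, 10.79 and 10.83 in D218G, and 11.21, 11.17 and 11.22 in D218Y. The D218Y and R216Q arrays were all above wild type, D218G lay within the wild type range, and R216W overlapped wild type from below. Hspa5 rose by 0.42 ± 0.04 in D218Y (adjusted p = 7.86e-07) and by 0.19 in R216Q (adjusted p = 0.00381), and differed by -0.09 in R216W (adjusted p = 0.171) and 0.02 in D218G, not called.

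Hsp90b1 (Grp94), the Hsp90 of the reticulum, read 11.03, 11.12 and 11.07 in wild type, 11.20, 11.23 and 11.24 in R216Q, 10.91, 10.95 and 10.91 in R216W, 11.16, 11.15 and 11.22 in D218G, and 11.35, 11.32 and 11.38 in D218Y. R216W was below every wild type array and the other mutant lines were above every one. It fell by 0.15 ± 0.04 in R216W (adjusted p = 0.00699), rose by 0.14 in R216Q (adjusted p = 0.00838) and by 0.27 in D218Y (adjusted p = 1.41e-05), and the D218G difference of 0.10 was not called (adjusted p = 0.0773). The R216Q and R216W calls ended under median centring, whereas the direct difference between these lines, given below, did not.

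The BiP co-chaperones followed in part. Dnajb11 (ERdj3), which hands nascent proteins to BiP, read 9.25, 9.38 and 9.26 in wild type and 9.88, 9.89 and 9.91 in D218Y, and rose by 0.60 ± 0.05 (adjusted p = 1.41e-07). In R216Q it rose by 0.28, and its differences in R216W and D218G were -0.08 and 0.11, not called. Dnajc10 (ERdj5), which reduces disulphides of misfolded proteins, rose by 0.68 ± 0.06 in D218Y and by 0.37 in R216W. Hspa13, an Hsp70 of microsomes, rose by 0.60 ± 0.08 in D218Y and 0.52 in R216Q. Dnajb9 (ERdj4), a stress-induced BiP partner, rose by 0.29 ± 0.06 in D218Y and 0.37 in R216Q. Dnajc1, a membrane partner of BiP, rose in D218Y alone of the 4 lines, by 0.38 ± 0.08, and was not tested for a difference from each of the others except D218G. Dnajc3 (p58IPK) was the exception, with values between 9.45 and 9.60 in all arrays and no call in any of the 6 comparisons, although its D218Y difference was called lower under quantile normalization (-0.12, adjusted p = 0.00637) and cyclic loess normalization (-0.09, adjusted p = 0.0422).

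The reticulum stress element, CCAAT and CCACG with any 9 bases between them, is bound by NF-Y together with ATF6 or XBP1. It was found on either strand in 3 of the 88 chaperone windows (3.41%) and in 0.119% of all windows. The 3 windows are those of Hspa5 (chr2:34771960-34772089, plus strand), Hsp90b1 (chr10:86705445-86705674, minus strand) and Dnajc3 (chr14:118937802-118937931, plus strand). They are shown with the element in capitals, up to the base before the start site, because the genes share the element and differ in their values. In Hsp90b1 the second run of capitals is the element on the opposite strand.
Hspa5: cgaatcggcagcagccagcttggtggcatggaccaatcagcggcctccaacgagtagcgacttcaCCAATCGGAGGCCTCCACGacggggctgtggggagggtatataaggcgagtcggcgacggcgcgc
Hsp90b1: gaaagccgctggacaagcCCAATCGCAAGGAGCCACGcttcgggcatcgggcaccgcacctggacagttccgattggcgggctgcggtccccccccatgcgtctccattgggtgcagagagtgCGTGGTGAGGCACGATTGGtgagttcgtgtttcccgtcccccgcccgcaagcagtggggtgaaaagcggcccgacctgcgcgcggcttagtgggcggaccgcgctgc
Dnajc3: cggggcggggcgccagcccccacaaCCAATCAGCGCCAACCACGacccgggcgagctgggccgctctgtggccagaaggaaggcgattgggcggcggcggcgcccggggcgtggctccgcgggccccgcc
Hspa5 and Hsp90b1 rose in R216Q and D218Y, whereas Dnajc3, with the same letters, was not called. Its D218Y difference was -0.06.

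Mitochondrial Hsp70 and Hsp60 read higher in every D218Y array than in any array of the other lines. Hspa9 (mortalin), the matrix Hsp70 that pulls in imported proteins and serves iron-sulphur cluster assembly, read 11.13, 11.13 and 11.16 in wild type, 11.51, 11.48 and 11.50 in R216Q, 11.15, 11.26 and 11.18 in R216W, 11.42, 11.41 and 11.48 in D218G, and 11.77, 11.81 and 11.82 in D218Y. R216Q and D218G lay between wild type and D218Y without overlapping either. Hspa9 rose by 0.66 ± 0.04 in D218Y (1.58-fold, adjusted p = 1.2e-09), by 0.36 in R216Q (adjusted p = 4.16e-06) and by 0.30 in D218G (adjusted p = 3.86e-05), and its R216W difference was 0.05 (adjusted p = 0.422).

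Hspd1 (Hsp60), the chaperonin of the matrix, read 11.91, 12.02 and 11.93 in wild type, 12.29, 12.32 and 12.31 in R216Q, 12.13, 12.13 and 12.10 in R216W, 12.20, 12.20 and 12.19 in D218G, and 12.50, 12.49 and 12.52 in D218Y. Every mutant array exceeded every wild type array, and no mutant lines overlapped each other. The rises were 0.55 ± 0.03 in D218Y (adjusted p = 5.03e-09), 0.35 in R216Q, 0.25 in D218G and 0.17 in R216W (adjusted p = 0.00301). A second Hspd1 probe set gave larger values, 0.81 in D218Y and 0.51 in R216Q, and which of them also reads pseudogene copies was not tested. Hspe1 (Hsp10), the lid of the same chamber, read 11.90, 12.05 and 11.90 in wild type and 12.25, 12.24 and 12.28 in D218Y, without overlap. It rose by 0.31 ± 0.05 in D218Y (adjusted p = 0.000165), while its differences of 0.09, 0.05 and 0.07 in R216Q, R216W and D218G were not called and those arrays overlapped wild type.

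Hspd1 and Hspe1 lie head to head on chromosome 1, and 1 start site of Hspd1 and that of Hspe1 are separated by 215 bases. Those bases (chr1:55087933-55088147, shown on the plus strand, in the direction of Hspe1) are printed because both genes start from them. The capitals mark 3 overlapping heat shock element cores, which form 2 overlapping 3-unit matches.
Hspe1: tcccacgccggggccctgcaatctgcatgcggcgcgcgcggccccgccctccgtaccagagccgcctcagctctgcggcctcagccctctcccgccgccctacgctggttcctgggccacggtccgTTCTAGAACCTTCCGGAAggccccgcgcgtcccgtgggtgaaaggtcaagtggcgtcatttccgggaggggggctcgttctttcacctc
With this interval in common, Hspd1 was called in all 4 mutant lines and Hspe1 in D218Y. Whether their changes differ from each other was not tested, as levels and differences of separate probe sets are not on 1 scale. Of the other mitochondrial J proteins, Dnaja3 (Tid1), the main partner of mortalin, rose by 0.56 ± 0.04 in D218Y, 0.23 in R216Q and 0.18 in D218G. Dnajc15, a J protein of the inner membrane, fell by 0.70 ± 0.09 in D218Y and by 0.35 in R216Q.

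**Figure D2:**
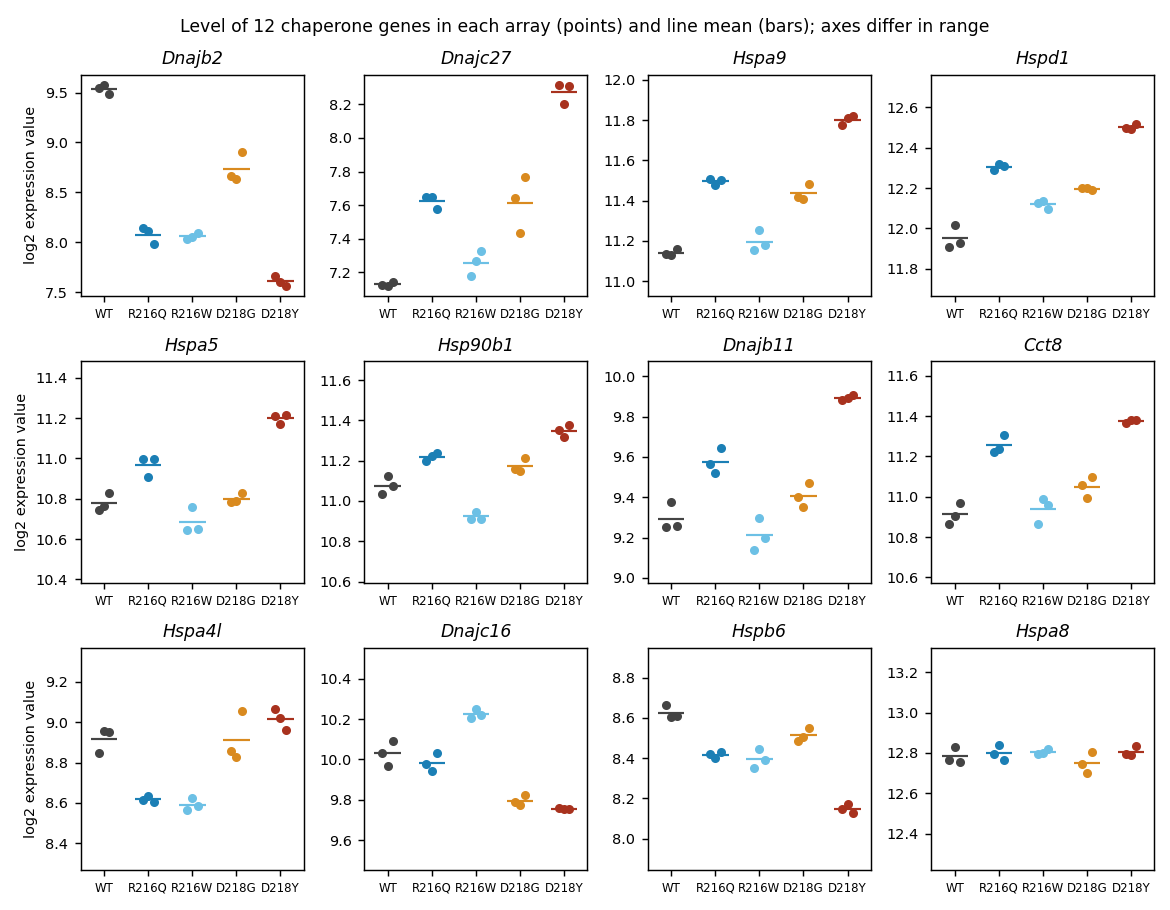
Log2 expression value of 12 chaperone genes in each of the 15 arrays (points, by line on the horizontal axis) with the line mean as a bar. The vertical axes differ in range. Dnajb2 fell from 9.48 to 9.58 in wild type to 7.56 to 7.67 in D218Y, while Hspa8 stayed between 12.70 and 12.84 in all arrays.

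CCT, the ring of 8 different subunits that folds actin and tubulin, was higher in part. Of the 10 CCT genes, 6 were called higher in R216Q, 2 higher and 1 lower in R216W, 4 higher in D218G, and 6 higher and 1 lower in D218Y. Of all genes, 11.8% were higher in R216Q, 9.36% in R216W, 10.3% in D218G and 20.3% in D218Y. Above the median gene level, where the 8 ring subunits lie, these shares were 22.8%, 17.8%, 19.9% and 37.6%. The 20% of CCT genes higher in R216W was near the latter share. The D218Y fall was that of Cct8l1, which like Cct6b lay below the median gene level. Cct6a rose by 0.50 ± 0.04 in D218Y (adjusted p = 1.88e-08), Cct8 by 0.46, Cct5 by 0.39, Cct3 by 0.30, Tcp1 by 0.22 and Cct4 by 0.20. Cct2 and Cct7, subunits of the same ring, differed by -0.01 and 0.00 and were not called there. All 6 D218Y rises and all 6 R216Q rises were kept with each array left out. Of the 4 D218G calls, those of Cct3, Cct4 and Cct8 ended without wild type replicate 1 (adjusted p = 0.0879, 0.19 and 0.18), which left Cct6a. In R216W those of Cct6a (0.14) and Cct7 (-0.11) also ended without that array (adjusted p = 0.0564 and 0.0562).

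Cct8, a ring subunit, separated the lines. It read 10.86, 10.90 and 10.97 in wild type, 11.22, 11.24 and 11.30 in R216Q, 10.86, 10.99 and 10.96 in R216W, 11.06, 10.99 and 11.10 in D218G, and 11.37, 11.38 and 11.38 in D218Y. R216Q and D218Y lay above all other lines and R216W overlapped wild type. Cct8 rose by 0.34 ± 0.04 in R216Q (adjusted p = 3.91e-05) and 0.46 in D218Y (adjusted p = 4.98e-07), and its R216W difference was 0.02. Under median centring the CCT calls were 2 higher in R216Q, 0 in R216W, 1 in D218G and still 6 in D218Y. The size of the rises did not fall with centring, as in R216Q, where Cct8 differed by 0.35 and kept its call and Cct3 by 0.15 (adjusted p = 0.0974) and lost it.

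**Figure D3:**
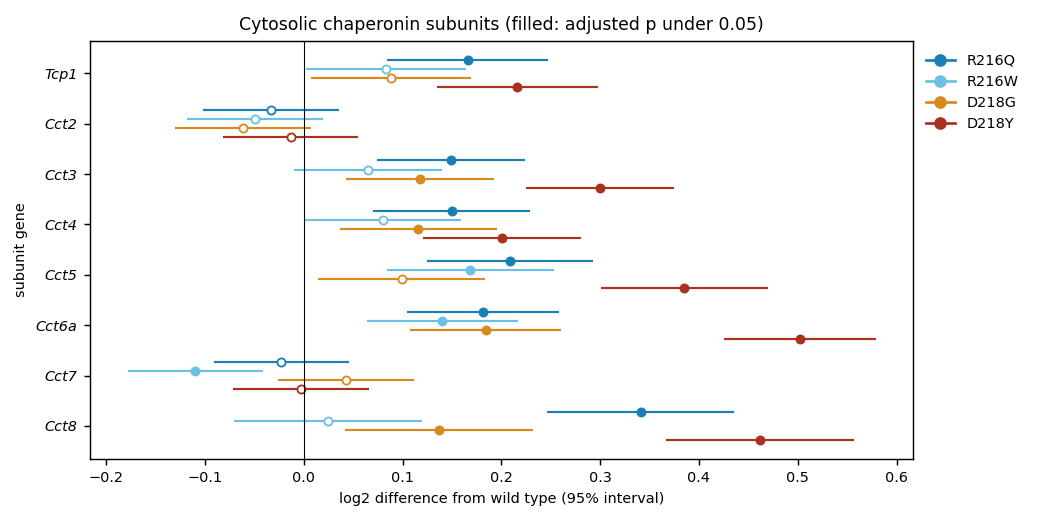
Log2 difference from wild type (points) with its 95% interval (bars) for the 8 ring subunits of CCT in the 4 mutant lines, filled where the adjusted p was under 0.05. Cct6a and Cct8 reach 0.50 and 0.46 in D218Y, whereas the Cct2 and Cct7 intervals in D218Y include 0.

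Small heat shock proteins hold denatured clients without ATP, and most were near or below the median gene level in these cells. Hspb6 (Hsp20), which lay above it, fell. It read 8.66, 8.60 and 8.61 in wild type, 8.42, 8.40 and 8.43 in R216Q, 8.35, 8.44 and 8.39 in R216W, 8.48, 8.51 and 8.55 in D218G, and 8.15, 8.17 and 8.13 in D218Y. Every mutant array was below every wild type array, and D218Y was the lowest line. Hspb6 fell by 0.48 ± 0.04 in D218Y (adjusted p = 3.28e-08), by 0.21 in R216Q and by 0.23 in R216W, and its D218G difference of -0.11 (adjusted p = 0.0421) lost its call without wild type replicate 1 (adjusted p = 0.167). Hspb11, which is named as a small heat shock protein but works as IFT25 in transport along cilia, rose by 0.79 ± 0.10 in D218Y (adjusted p = 9.74e-06) and by 0.42 in R216W. Its R216Q difference of 0.33 lost its call without R216Q replicate 2 (adjusted p = 0.123).

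Among the DnaJ proteins, Dnajb2 showed the largest difference of all 83 genes in each of the 4 comparisons with wild type. Dnajb2 (HSJ1) carries ubiquitin-interacting motifs and passes Hsp70 clients to the proteasome. It read 9.54, 9.58 and 9.48 in wild type, 8.14, 8.11 and 7.98 in R216Q, 8.03, 8.06 and 8.09 in R216W, 8.66, 8.64 and 8.91 in D218G, and 7.67, 7.61 and 7.56 in D218Y. All mutant arrays were below all wild type arrays, the R216Q and R216W arrays overlapped each other, D218G was the nearest to wild type, and D218Y was the lowest. Dnajb2 fell by 1.92 ± 0.07 in D218Y (3.80-fold, adjusted p = 5.89e-12), by 1.46 in R216Q (2.75-fold, adjusted p = 8.82e-10), by 1.48 in R216W (2.78-fold, adjusted p = 9.98e-10) and by 0.80 in D218G (1.74-fold, adjusted p = 7.72e-07). These calls were kept under all 10 alternatives and with each array left out.

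The GATA motif NGATAA, the letters that GATA factors recognise, was on either strand of 11 of the 88 chaperone windows (12.5%) and of 25.3% of all windows. A window of Dnajb2 holds it just after a start site that lies within the annotated gene, and the 27 bases around that start (chr1:75236694-75236720, plus strand, 1 of 2 windows) are shown with the motif in capitals. Binding was not measured here.
Dnajb2: gcctgcgggaccAGATAAaggctgcga

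In D218Y, 2 of 4 class A genes were called higher and, of 13 class B genes, 2 were higher (15.4%) and 8 lower (61.5%). Of all genes 20.3% were higher and 24.2% lower there, and of those above the median gene level 37.6% and 30.7%. Dnaja2, a general Hsp70 partner, rose in D218Y by 0.33 ± 0.04, while Dnaja1 was not called there. Dnajb1 (Hsp40), the partner of inducible Hsp70, fell by 0.28 ± 0.04 in R216Q and in D218Y and differed by -0.07 in R216W, not called, and by -0.14 in D218G, a call that ended without D218G replicate 1 (adjusted p = 0.0603). Dnajb4 fell by 0.46 ± 0.07 in D218Y. Dnajb6, which suppresses aggregation, had overlapping wild type and D218Y arrays, and its difference of -0.23 (adjusted p = 0.0405) lost its call without D218Y replicate 3 (adjusted p = 0.144). Of the 8 class B genes lower in D218Y, 4 kept the call with each array left out, 3 under median centring, 5 under quantile normalization and 4 under cyclic loess normalization.

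Class C DnaJ proteins share only the J domain and serve separate tasks. In D218Y 11 of 28 were higher (39.3%, beside 20.3% of all genes) and 8 lower (28.6%, beside 24.2%). Both shares were near those of all genes above the median gene level, 37.6% higher and 30.7% lower. Dnajc27, which joins a Rab-like GTPase to its J domain, read 7.12, 7.12 and 7.14 in wild type, 7.65, 7.65 and 7.57 in R216Q, 7.18, 7.27 and 7.33 in R216W, 7.64, 7.43 and 7.77 in D218G, and 8.32, 8.20 and 8.31 in D218Y. All mutant arrays exceeded wild type, with R216W the closest. It rose by 1.15 ± 0.07 in D218Y (2.22-fold, adjusted p = 2.52e-09), by 0.50 in R216Q and by 0.49 in D218G, and its R216W difference of 0.13 was not called (adjusted p = 0.267). Dnajc2, which sits with Hspa14 at the ribosome, rose by 0.75 ± 0.05 in D218Y and 0.22 in R216Q. Dnajc21, a factor of ribosome assembly, rose by 0.56 ± 0.07 in D218Y and 0.35 in R216Q, and Dnajc18 by 0.68 ± 0.09 and 0.55. Among the falls in D218Y, Dnajc28 changed by -0.37 ± 0.05, the spliceosome-associated Dnajc8 by -0.35 ± 0.06 and Dnajc4 by -0.34 ± 0.04.

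A pair of class C genes was called with opposite signs in different lines. Dnajc16 read 10.03, 9.97 and 10.09 in wild type, 9.98, 9.94 and 10.03 in R216Q, 10.20, 10.25 and 10.22 in R216W, 9.79, 9.77 and 9.82 in D218G, and 9.76, 9.75 and 9.75 in D218Y. R216W was above, and both D218 lines below, every wild type array. It rose by 0.20 ± 0.04 in R216W (adjusted p = 0.00198) and fell by 0.23 in D218G (adjusted p = 0.000476) and by 0.27 in D218Y (adjusted p = 2.88e-05). Dnajc25 read 7.87, 7.88 and 7.91 in wild type, 7.62, 7.72 and 7.68 in R216W and 8.31, 8.24 and 8.33 in D218Y, without overlap. It fell by 0.21 ± 0.04 in R216W (adjusted p = 0.000627, not called under median centring) and rose by 0.41 in D218Y (adjusted p = 2.29e-07). Of the binding partners, Hspbap1, named for binding Hsp27, read 8.22, 8.14 and 8.22 in wild type and 9.10, 8.96 and 9.06 in D218Y, and rose by 0.85 ± 0.07 (adjusted p = 1.24e-07).

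The level of a gene went along with the direction of its D218Y difference. Of the 64 chaperone genes above the median gene level, 34 were higher and 13 lower, and of the 19 below it 0 were higher and 8 lower. The 8 falls depend on the scaling, as 4 kept the call under median centring or quantile normalization and 3 under cyclic loess normalization, beside 10, 13 and 12 of the 13 falls above the median. Among all genes the same split was 37.6% higher and 30.7% lower above the median, and 2.98% higher and 17.7% lower below it. The median difference of the 19 dim chaperone genes was -0.14, beside -0.09 for all dim genes. In R216Q, R216W and D218G limma called 0 of the 19, and at an unadjusted p under 0.05 the counts were 2, 0 and 3, all lower. The falls of dim members such as Hspa12b (-0.32), Hspb2 (-0.35) and Cct8l1 (-0.26) therefore sit beside a like shift of dim genes at large, whose part in them was not tested. Hspb2 also lost its call without wild type replicate 3 (adjusted p = 0.137).

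**Figure D4:**
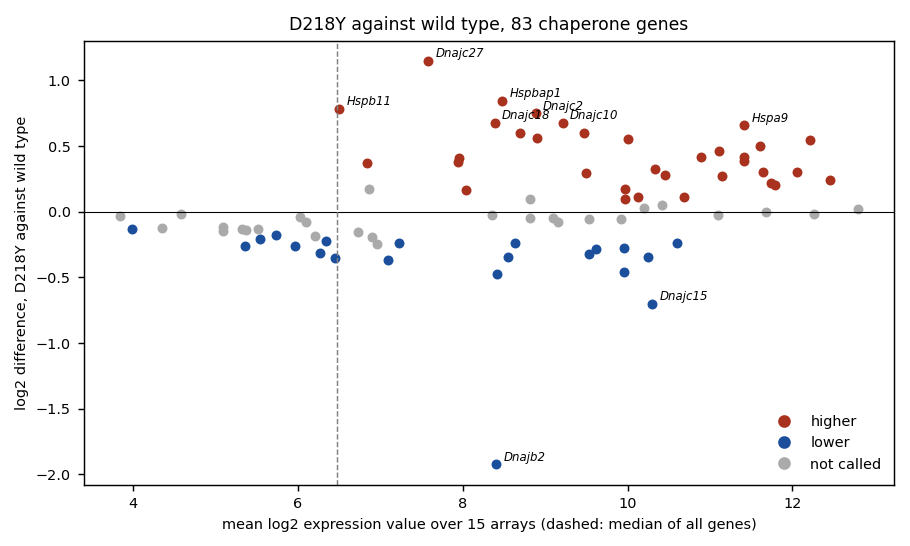
Log2 difference of D218Y from wild type (vertical axis) against the mean log2 expression value over 15 arrays (horizontal axis) for the 83 chaperone genes, in red for higher, blue for lower and grey for not called, with the median of all genes dashed. No red point lies to the left of the dashed line, where 8 of 19 genes are blue, of which 4 kept the call under median centring.

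The lines that change the same residue were compared directly. R216W against R216Q gave 4 chaperone genes higher (4.82%, beside 8.25% of all genes) and 14 lower (16.9%, beside 8.65%), together 21.7% beside 16.9%, and 28.1% beside 32.4% among genes above the median level. D218Y against D218G gave 30 higher (36.1%, beside 17.4%) and 17 lower (20.5%, beside 15.6%), together 56.6% beside 33%, and 68.8% beside 56.3% above the median. Under median centring of the arrays the D218 comparison became 30 higher and 5 lower. Of the 14 genes lower in R216W than in R216Q, 11 were among the 30 higher in D218Y than in D218G, which is 78.6% of the first list and 36.7% of the second. Among all genes the overlap was 1031, 59.8% of 1725 and 29.7% of 3476. These comparisons share no arrays.

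Genes of the reticulum were among those that separated both pairs of lines. Of the 8 assigned to its lumen, 4 were lower in R216W than in R216Q and 0 higher (1 at an unadjusted p under 0.05). In D218Y 7 were higher than in D218G and 0 lower. Of all genes above the median level, 16.7% were lower in the first comparison and 32.3% higher in the second. Hspa5 was lower in R216W than in R216Q by 0.28 ± 0.04 (log2 difference -0.28, adjusted p = 0.000182) and higher in D218Y than in D218G by 0.40 (adjusted p = 2.27e-06). Hsp90b1 differed by -0.30 ± 0.04 (adjusted p = 2.59e-05) and 0.17 (adjusted p = 0.00129), Dnajb11 by -0.36 ± 0.05 and 0.49, and Dnajb9 by -0.33 ± 0.06 and 0.25. Hspa9 differed by -0.30 ± 0.04 (adjusted p = 2.76e-05) and 0.36 (adjusted p = 1.49e-06), and Cct8 by -0.32 ± 0.04 (adjusted p = 0.000104) and 0.33 (adjusted p = 3.18e-05). Each of these 12 differences was kept with each array left out. That of Dnajb9 between the D218 lines ended when the arrays of these lines alone were fitted (adjusted p = 0.0664). Dnajb2 separated the D218 lines, by -1.12 ± 0.07 (adjusted p = 4.16e-09), and not the R216 lines, where the difference was -0.02 (adjusted p = 0.944) with a 95% interval from -0.16 to 0.12. Dnajb1 and Dnajc16 were higher in R216W than in R216Q, by 0.21 and 0.24.

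**Figure D5:**
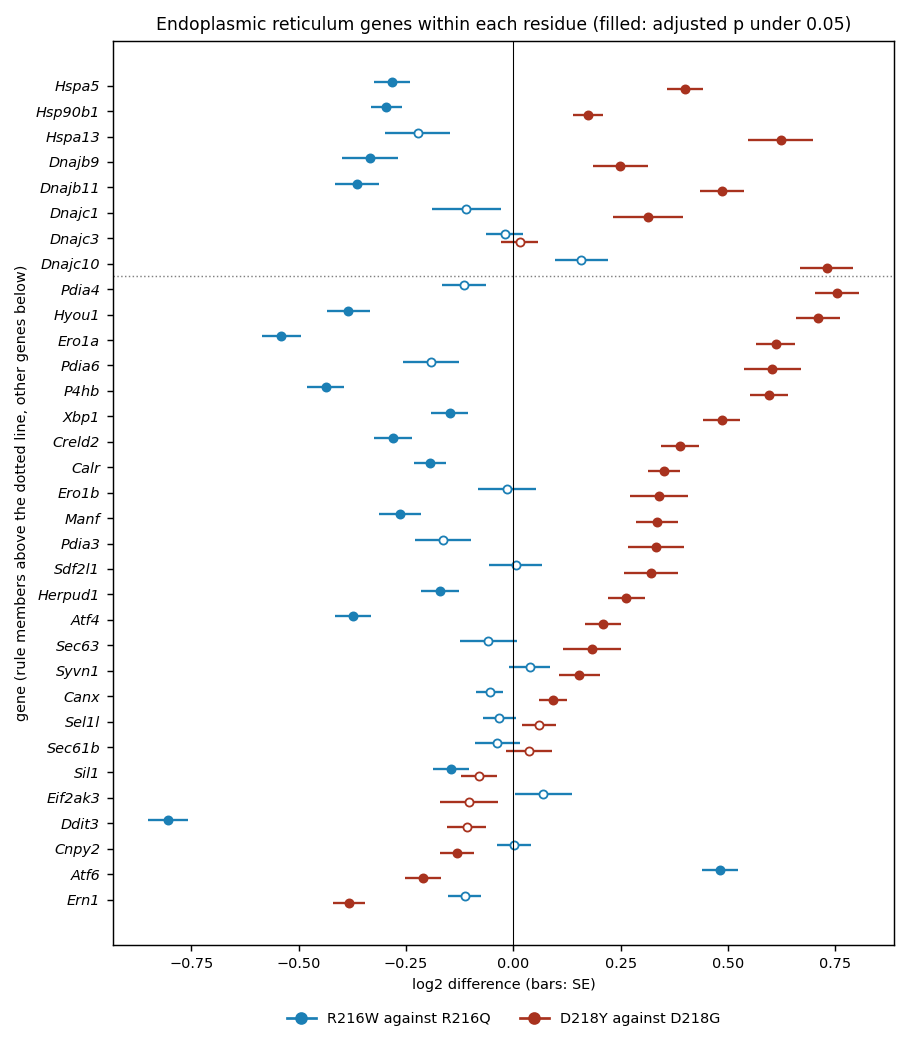
Log2 difference of R216W from R216Q (blue) and of D218Y from D218G (red) with SE bars, for 8 chaperone genes of the endoplasmic reticulum (above the dotted line) and 25 other folding and stress genes of that compartment (below it, sorted by the red values), filled where the adjusted p was under 0.05. For Hspa5, Hsp90b1, Dnajb9 and Dnajb11 the blue points lie between -0.36 and -0.28 and the red points between 0.17 and 0.49.

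Partners of the chaperones that the rule does not take were counted from lists that were drawn up with earlier results known. The shares of all genes beside which their counts stand are 20.3% higher and 24.2% lower in D218Y, 11.8% and 9.65% in R216Q, 9.36% and 7.23% in R216W, and 10.3% and 7.77% in D218G. Most partner genes lie above the median gene level. There the shares of all genes are larger, 37.6% and 30.7% in D218Y, 22.8% and 18% in R216Q, 17.8% and 13.6% in R216W, and 19.9% and 14.3% in D218G. Of 25 measured folding and stress genes of the reticulum, 16 were higher (64%) and 5 lower (20%) in D218Y, 12 and 2 in R216Q, 5 and 2 in R216W, and 8 and 1 in D218G. Within residues, 1 was higher and 11 were lower in R216W than in R216Q, and 17 were higher and 3 lower in D218Y than in D218G. Of all genes, 8.25% were higher and 8.65% lower in the first comparison, and 17.4% and 15.6% in the second. Above the median level these shares were 15.8% and 16.7%, and 32.3% and 24%. Hyou1 (Grp170), which recharges BiP, rose by 0.97 ± 0.05 in D218Y and was 0.38 lower in R216W than in R216Q (log2 difference -0.38). P4hb (protein disulphide isomerase) rose by 0.93 ± 0.04 in D218Y and Pdia4 by 0.96 ± 0.05. Ddit3 (CHOP), a transcription factor of the late stress response, did not follow them. It read 9.77, 9.68 and 9.79 in wild type and 8.58, 8.71 and 8.64 in R216W, and fell there by 1.10 ± 0.05 (adjusted p = 5.39e-10), by 0.30 in R216Q and by 0.22 in D218Y. Atf6 did not follow them either, with 10.63, 10.60 and 10.64 in wild type and 9.91, 9.93 and 9.91 in D218Y. Its R216Q and D218G arrays were also all below wild type, and its R216W arrays all above.

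Of 6 measured genes of a list of heat shock factors and their binding proteins, Hsf2 was the one called. It read 6.89, 7.26 and 7.01 in wild type, 7.78, 8.02 and 7.49 in R216Q, 8.24, 8.31 and 8.28 in R216W, 6.92, 6.60 and 7.21 in D218G, and 8.13, 8.07 and 8.15 in D218Y. D218G overlapped wild type and the other mutant lines lay above it. Hsf2 rose by 0.71 ± 0.14 in R216Q (adjusted p = 0.00169), by 1.22 in R216W (adjusted p = 1.79e-05) and by 1.06 in D218Y (adjusted p = 1.66e-05), and its D218G difference was -0.15, not called. Hsf1 was not analysed here.

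Of 28 cytosolic co-chaperones, 17 were higher (60.7%) and 5 lower (17.9%) in D218Y, 11 and 4 in R216Q, 5 and 4 in R216W, and 8 and 1 in D218G. Bag2, which inhibits the Hsp70-bound ubiquitin ligase CHIP, rose by 0.96 ± 0.06 in D218Y, 0.59 in R216Q, 0.49 in R216W and 0.33 in D218G, and Fkbp5, an immunophilin of Hsp90, by 0.95 ± 0.06 in D218Y. Of 12 prefoldin and phosducin-like genes, which deliver clients to CCT, 5 were higher (41.7%) and 3 lower (25%) in D218Y, 3 and 2 in R216Q, 2 and 1 in R216W, and 2 and 0 in D218G. The shares lower in D218Y and R216W (8.33%) were near those of all genes. The shares higher were 41.7% in D218Y, 25% in R216Q, 16.7% in R216W and 16.7% in D218G. They were near the 37.6%, 22.8%, 17.8% and 19.9% of all genes above the median level. Pdcl3 rose by 0.50 ± 0.04 in D218Y and Vbp1, a prefoldin subunit, differed by -0.22 ± 0.07 (adjusted p = 0.021). Of 17 other mitochondrial chaperones and proteases, 9 were higher (52.9%) and 2 lower (11.8%) in D218Y, 7 and 2 in R216Q, 2 and 2 in R216W, and 5 and 1 in D218G. Trap1, the mitochondrial Hsp90, rose by 0.44 ± 0.04 in D218Y, whereas Hscb, the J protein of iron-sulphur cluster assembly, fell by 0.40 ± 0.06 there. The median D218Y differences of these lists were 0.39 for the reticulum, 0.19 for the co-chaperones, 0.07 for the prefoldin and phosducin-like genes and 0.15 for the mitochondrial genes, beside -0.07 for all genes.

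Markers of maturity and of other blood lineages differed between the lines along with these genes. The mean log2 level of the 9 erythroid markers was 11.36 to 11.38 in wild type, 10.90 to 10.94 in R216Q, 11.15 to 11.17 in R216W, 10.96 to 11.00 in D218G and 9.80 to 9.84 in D218Y. That of 10 mast cell markers was 5.45 to 5.49 in wild type and 6.32 to 6.38 in D218Y, with 2 and 4 of the 10 above the median gene level. In R216Q it was 5.66 to 5.69, in R216W 5.52 to 5.55 and in D218G 5.47 to 5.54. That of 7 megakaryocyte markers was 7.22 to 7.29 in wild type and lower in every mutant line. It was 6.65 to 6.71 in R216Q, 6.83 to 6.90 in R216W, 6.75 to 6.79 in D218G and 6.19 to 6.22 in D218Y. The part of these differences in the chaperone values was not tested. In bulk RNA, fewer cells of a type and less RNA per cell cannot be told apart.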

How the data were processed

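RNA of 15 cultures was hybridised to Affymetrix mouse arrays, per the labels' protocols. Each probe set has 1 deposited log2 value per array, made by the authors with Partek 6.6 and RMA according to the submitters' processing notes. RMA removes background, equalises the array distributions and combines probes, which compresses differences of dim genes. No value was filtered or rescaled. Precision is set by the number of arrays.

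Of 28350 probe sets, 21780 named 1 gene symbol, 1618 several and 4952 none in the platform annotation. Only those with 1 symbol were used, taking the brightest for 996 genes with several, which gave 19933 genes. Another 10 probe sets that named a chaperone together with other genes were left out. All 83 chaperone genes matched RefSeq by gene ID. The arrays held no identical pair. Groups and replicate numbers came from the sample titles.

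The model was fitted in limma 3.58.1 (R 4.3.3), with 1 mean per line over all 15 arrays, untrended eBayes and two-sided tests. Benjamini-Hochberg adjustment ran over all genes in each of the 6 comparisons. The fit was first tested on simulated data. There were 10 alternatives, and each array was left out in turn. Promoter windows came from a RefSeq table on GRCm38.p6, searched for exact letters on both strands.

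The members and all lists were chosen with earlier results of these data known, and compartments were assigned after the values were seen. Named genes were the up to 8 largest rises and falls per comparison, a set of well-known chaperones with every Cct gene, and up to 4 genes per partner list. Dnajc1, Dnajc11, Dnajb12, Dnajb14 and Atf6 were named outside this rule, after their values were seen.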

Additional observations from a re-analysis of the deposited data

Results flagged for a closer look

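For 8 chaperone genes, every array of at least 1 mutant line lay above the wild type arrays and every array of another lay below them. How many of all genes do so was not counted, so the 8 cannot be read as particular to chaperone genes. Of these, 3 were also called in both directions, Hsp90b1, Dnajc16 and Dnajc25. The values below are log2 differences from wild type, and a gap is the second line's value minus the first's. Hsp90b1 was higher in R216Q (0.14) and lower in R216W (-0.15), and the direct difference of R216W from R216Q was -0.30 (limma, adjusted p = 2.59e-05). Dnajc25 differed by 0.08 in R216Q, not called, and by -0.21 in R216W, with a direct difference of -0.30 (limma, adjusted p = 2.89e-05). The other gaps were not tested. From R216W to D218Y they were 0.43 for Hsp90b1, 0.62 for Dnajc25 and -0.47 for Dnajc16, and from R216W to D218G they were 0.25, 0.28 and -0.43.

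In the other 5 genes at least 1 of the opposite differences was not called. Hspa4l was called lower in R216Q and R216W, and its D218Y difference of 0.10 was not called (gaps 0.40 and 0.43). Hspa2 differed by -0.10 in R216Q, not called, and was higher in D218Y (gap 0.27), a direction that quantile normalization turned. Dnajc11 differed by -0.07 in R216Q, not called, and by 0.09 in D218Y (gap 0.16), and Hspa14 by -0.07 in R216W, not called, and by 0.11 in D218Y (gap 0.19). Both D218Y calls ended without D218Y replicate 1, among other arrays. Cct7 differed by -0.11 in R216W, a call that ended without wild type replicate 1, and by 0.04 in D218G, not called (gap 0.15). All of these comparisons share the wild type arrays.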

How the results depend on the processing

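Called chaperone genes numbered 32 in R216Q, 21 in R216W, 21 in D218G, 55 in D218Y, 18 for R216W against R216Q, 47 for D218Y against D218G and 56 in the F test. Under median centring of the arrays they were 21, 12 and 9 in R216Q, R216W and D218G, and 11 for R216W against R216Q. Array weights, whose iteration stopped before it converged, gave 34 in R216W and 29 for R216W against R216Q. An adjusted p under 0.01 gave 13 in R216W and 7 in D218G, and the arrays of the compared lines alone gave 7 in D218G. With 1 array left out, the counts were 27 to 32 in R216Q, 16 to 20 in R216W, 11 to 19 in D218G, 48 to 56 in D218Y, 15 to 17 for R216W against R216Q, 39 to 56 for D218Y against D218G and 52 to 57 in the F test. The D218Y, D218Y against D218G and F test counts stayed within 1.5 times under the alternatives run. Hspa2 reversed under quantile normalization, to -0.0224 in D218Y (adjusted p = 0.751) and -0.0213 against D218G (adjusted p = 0.782). The cause was not tested. For the named chaperone genes 2 results reversed, 282 lost and 86 gained a call, and 4874 did neither. Single genes of the partner lists were not followed under the alternatives or with an array left out. With the replicate number as a block the counts were 32, 21, 18, 52, 16 and 46 in the same order and 52 in the F test. The labels do not say whether equal numbers pair the cultures. Over 30 same-number pairs of arrays from different lines the correlation of deviations ran from -0.50 to 0.41 (median -0.02). Over 60 pairs with unlike numbers it ran from -0.41 to 0.54 (median 0.01). With ranges this wide in both, a pairing is neither shown nor excluded. RMA compresses the differences of dim genes, and 3 arrays a line limit the small ones.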
